A study of Mus musculus with 4 samples.

Results

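The cytosolic ribosomal protein genes encode the protein parts of the ribosome outside mitochondria. A gene was counted here when its symbol was Rpl or Rps with a number, or was Rplp0, Rplp1, Rplp2 or Rpsa, and when it reached at least 5 CPM in any library, where CPM is the gene's count scaled so that all libraries have the same total. The name rule matched 84 of 31055 listed features, and 81 of them reached the minimum: 49 of the large subunit, stalk proteins included, and 32 of the small subunit. All 3 that did not are paralogues, Rpl3l, Rpl10l and Rpl39l.

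The cells were muscle stem cells, which rebuild damaged fibres, sorted by nuclear GFP from Tg:Pax7-nGFP mice aged 2 to 4 months. All 4 groups carry that transgene, in which Pax7 regulatory sequence drives the GFP, so the sort kept cells in which it was active or the protein persisted. Quiescent EOM and quiescent TA cells came from the extraocular muscles around the eye and the tibialis anterior of the leg and were used straight after sorting. Activated EOM and activated TA cells had spent 4 days on Matrigel in growth media at 3% oxygen. Each group was 1 library of droplet single-cell RNA counts, so no difference has a replicate check, no test between groups was made, and intervals cover counting error only. The sources used here do not say whether animals were pooled. Where 4 values of a gene are given in library order, they stand for EOM and TA at rest and then EOM and TA after activation, in CPM.

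Ribosomal proteins are needed in near equal amounts, since each sits in the ribosome about once, with the acidic stalk proteins Rplp1 and Rplp2 as the main exception. Their messenger RNAs are among the most abundant of any cell, and many begin with a terminal oligopyrimidine (TOP) run, a C followed by C and T, through which TOR signalling and the protein Larp1 set their translation. Satellite cells at rest are small and make little protein, and ribosome production is known to go up when they enter the cell cycle. Some ribosomal proteins have a second gene for a related protein, a paralogue, and most have processed copies elsewhere in the genome.

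Sequence bears on how these genes can be counted, and Rps27 shows it best. Rps27 (GENCODE vM21, GRCm38, chr3:90212522-90213651, minus strand) encodes a zinc-finger protein of the small subunit. Rps27rt (chr9:114982366-114982739, minus strand) is a copy annotated as protein-coding, and Rps27l (chr9:66946086-66949516, plus strand) is the paralogue, known as a target of the tumour suppressor p53. Their coding sequences, each of 255 bases with the stop codon, are given from GENCODE transcripts, and capitals mark the bases that differ from Rps27.
Rps27: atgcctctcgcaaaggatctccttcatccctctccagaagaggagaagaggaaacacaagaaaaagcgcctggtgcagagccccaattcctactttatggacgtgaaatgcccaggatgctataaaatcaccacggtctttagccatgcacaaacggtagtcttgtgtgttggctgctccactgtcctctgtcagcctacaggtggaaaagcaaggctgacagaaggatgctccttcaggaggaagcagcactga
Rps27rt: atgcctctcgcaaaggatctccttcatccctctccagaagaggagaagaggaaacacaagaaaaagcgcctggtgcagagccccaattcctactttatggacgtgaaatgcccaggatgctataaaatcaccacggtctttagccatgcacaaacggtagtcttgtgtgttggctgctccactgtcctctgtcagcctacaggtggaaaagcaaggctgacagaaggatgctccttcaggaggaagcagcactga
Rps27l: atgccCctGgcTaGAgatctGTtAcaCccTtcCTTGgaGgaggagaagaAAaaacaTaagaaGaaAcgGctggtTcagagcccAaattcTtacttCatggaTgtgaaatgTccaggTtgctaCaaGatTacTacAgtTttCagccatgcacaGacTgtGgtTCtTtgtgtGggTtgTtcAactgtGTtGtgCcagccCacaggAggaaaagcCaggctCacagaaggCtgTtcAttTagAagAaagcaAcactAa
Rps27 and Rps27rt did not differ at any coding base, whereas Rps27l differed from Rps27 at 61. A read inside the shared stretch cannot be placed on Rps27 or Rps27rt alone, while a read of Rps27l can. Cell Ranger, by its design, counts only reads that fit 1 gene. The sources used here name neither the kit nor the read length.

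The last 300 bases of each member's transcript were compared with the transcripts of all other listed genes. For 17 members, at least 1 window of 91 bases there occurred unchanged in another listed gene, called a listed copy below, and 64 members had no such window. Members with a listed copy are uncertain as measures of their own gene, because reads could be lost or moved to the copy. Copies outside the listed genes were not searched for, so their part in the counts of the 64 was not tested. The coding regions of Rpl10 and Rps12 matched those of Rpl10-ps3 and Rps12-ps3 at 100% of bases, and that of Rpl27 matched a stretch of the transcript of Rpl27-ps3, a processed pseudogene, at 100%. Paralogues were further apart: Rpl36a and Rpl36al were 87.9% identical over their coding regions, Rpl39 and Rpl39l 85.3%, Rpl10 and Rpl10l 84.8%, Rps27 and Rps27l 76.1%, Rpl3 and Rpl3l 73.3%, Rpl22 and Rpl22l1 67.5% and Rpl7 and Rpl7l1 54.5%.

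RefSeq (GRCm38.p6) start sites were listed for 61 of the 81 members. A TOP run, here a C at the annotated first base followed by at least 4 bases that are C or T, on the transcribed strand, stood at 13 of the 72 starts of members (18.1%) and at 823 of 32851 starts of all genes (2.51%). No start of the 75 for mitochondrial ribosomal proteins held it. With a run allowed to begin within 10 bases of the annotated start, the contrast was smaller. Such a run stood at 52.8% of member starts, 41.3% of mitochondrial ribosomal protein starts and 30.7% of all starts. The windows of 4 members, from 10 bases before the annotated start to the 20 bases from it, show the run in capitals. Rpl15 (chr14:18270967-18270996, minus strand) and Rps10 (chr17:27635225-27635254, minus strand) were higher after activation, and Rpl38 (chr11:114668570-114668599, plus strand) and Rps21 (chr2:180257369-180257398, plus strand) were lower.
Rpl15: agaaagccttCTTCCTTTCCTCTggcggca
Rps10: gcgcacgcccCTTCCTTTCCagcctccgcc
Rpl38: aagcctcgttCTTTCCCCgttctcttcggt
Rps21: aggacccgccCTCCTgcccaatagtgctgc
Over the members with no listed copy, the median activation ratio on the log2 scale was 0.03 in EOM and 0.26 in TA for the 9 with a run at the start, and 0.09 and 0.14 for the 39 without. The run was thus present on both sides. A start that is off by a few bases in the annotation would be missed by this split.

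The 4 libraries held 4262 to 7597 barcodes, of which 2902 to 5566 were kept, with 15286796 to 122868688 UMIs (unique molecular identifiers, each marking 1 captured RNA molecule). Median UMIs per cell were 4664 and 5030 in quiescent EOM and TA and 21284 and 23364.5 in activated EOM and TA. The median share of UMIs from mitochondrially encoded genes was 6.93%, 7.90%, 6.23% and 6.24% in library order. All 10 muscle stem cell markers had UMIs in every library, and their summed level was 5269 and 7040 CPM in the quiescent and 1845 and 2371 CPM in the activated libraries. The 10 differentiation markers summed to 12.1 and 16.2 CPM in the quiescent and 5752 and 10256 CPM in the activated libraries. Among markers of other cells, the 8 of fibroblasts summed to 743 and 760 CPM in the quiescent and 79.5 and 58.2 CPM in the activated libraries, and the 8 of mural or smooth muscle cells to 554 and 383 CPM and then 2279 and 1492 CPM, led in 3 of the 4 libraries by Acta2. All defining markers of macrophages together stayed at 24.1 CPM or less. The part of other cells in the results below was not tested. Any 2 libraries shared 3 to 6 kept barcodes.

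Ribosomal protein genes supplied about the same share of all UMIs in every library. The share was 22.6% in quiescent EOM (95% Wilson interval 22.6 to 22.7), 21.7% in quiescent TA (21.6 to 21.7), 22.1% in activated EOM and 21.5% in activated TA, whose intervals were narrower still. EOM was above TA in both states. The activated libraries lay below the quiescent library of the same muscle by less than 1 percentage point. Over the 64 members with no listed copy, the share was instead higher after activation. It went from 20.02% to 20.5% in EOM and from 19.1% to 19.98% in TA. Over the 17 with a listed copy it was lower, going from 2.63% to 1.60% in EOM and from 2.55% to 1.54% in TA. The median number of ribosomal protein UMIs per cell was 1040.5 and 4724 in quiescent and activated EOM and 1059.5 and 5044.5 in TA. UMI totals also follow sequencing depth, so RNA per cell cannot be read from them. The large subunit held 55.2% and 55.8% of ribosomal protein UMIs in the quiescent and 54.4% and 54.5% in the activated libraries.

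Single cells differed more at rest. The middle 90% of cells ran from 15.5% to 30.02% in quiescent EOM and from 14.8% to 28.8% in quiescent TA, against 19.3% to 24.9% in activated EOM and 18.5% to 24.3% in activated TA. With every cell thinned to 2000 UMIs, which kept 2845 to 5535 cells per library, the SD over cells was 4.37 and 4.33 percentage points at rest and 1.96 and 2.15 after activation. Counting alone would give 0.92 to 0.94 percentage points in each. The spread at equal depth was thus larger than counting error in all 4 libraries and about 2-fold larger at rest. The median share differed little with depth: with cells split into 4 equal groups from the fewest to the most UMIs it was 23.6%, 23.2%, 22.3% and 22.3% in quiescent EOM, and in each other library the 4 groups lay within 1 percentage point.

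**Figure D1:**
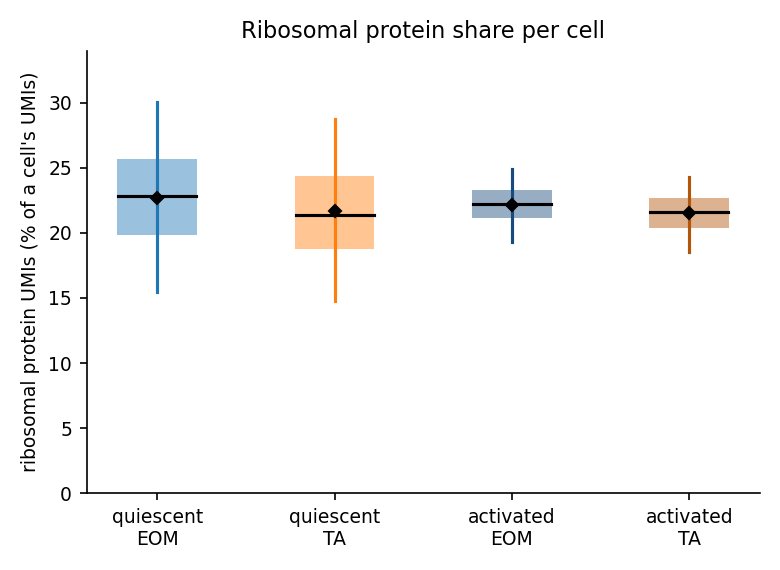
Share of each cell's UMIs that came from 81 ribosomal protein genes, in percent, for the 4 libraries. Boxes span the middle 50% of cells, vertical lines the 5th to 95th percentile, black bars the median, and diamonds the share over all UMIs of a library. The diamonds lie between 21.5% and 22.6%, and the quiescent boxes are taller.

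The total was near constant, and the members that made it up were not. Between quiescent and activated EOM, 14.1% of ribosomal protein UMIs would have to move to another member to make the profiles equal, and 15.5% in TA. The muscles differed by 2.83% at rest and 1.68% after activation, and Myog-holding and Myog-free cells by 1.04% in EOM and 0.93% in TA. Over the 64 members with no listed copy, the state difference was 12.6% in EOM and 13.7% in TA. Of the comparisons made, the state difference was the larger by far, and state and library preparation cannot be told apart with 1 library each.

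Compared with quiescent EOM, activated EOM held 9 members at a level 1.5-fold or more above and 20 at one 1.5-fold or more below. Over all 10322 features at 5 CPM or more, 34.2% were that much higher and 32.3% that much lower. In TA, 11 members were above and 19 below by this measure, where all features gave 37% and 31.9%. The members' median log2 ratio was -0.01 in EOM and 0.09 in TA, beside 0.05 and 0.10 over all features. The members' shares of differences this size were below those of all features, and 47 of the 81 were within 1.5-fold in both muscles. Scaling by median-of-ratios factors left 5 and 4 members at least 1.5-fold higher and 22 and 23 lower in EOM and TA. Keeping only cells with at most 5% mitochondrial UMIs gave 11 higher and 17 lower in EOM, and 18 higher and 19 lower in TA, but left only 263 quiescent EOM and 46 quiescent TA cells.

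The direction was shared by the muscles. By any amount, 40 of 81 members were higher in EOM and 47 of 81 in TA, where 51.8% and 53% of all features were higher and 48.2% and 47% lower. Of the members, 40 were higher and 34 lower in both, and 7 had opposite signs, none of them by 1.5-fold in either. Counts that join both muscles or both states, here and elsewhere in the text, were not made for all features. Whether members shared a direction more often than other genes was therefore not tested. Across members, the activation ratios of EOM and TA had a Pearson r of 0.98 and a Spearman rho of 0.97 (n = 81 genes, which share the 4 libraries and their depth). Those at least 1.5-fold higher in both included Rpl12, Rpl22l1, Rpl31, Rps20, Rps27l and Rpsa, and 18 were at least 1.5-fold lower in both.

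**Figure D2:**
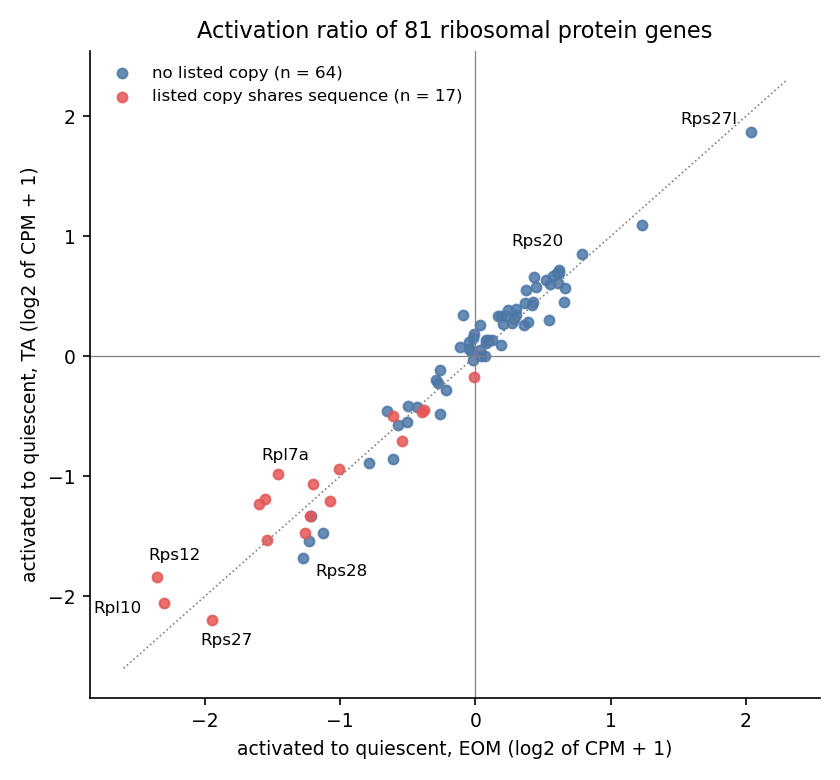
Activated to quiescent ratio of each ribosomal protein gene on the log2(CPM + 1) scale, EOM on the horizontal and TA on the vertical axis. Red points are the 17 members that share a 91-base stretch with another listed gene, blue points the other 64, and the dotted line marks equal ratios. Points lie along the line, Rps27l at 2.04 and 1.86, and all red points are at or below 0.

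The member that differed most upward was Rps27l. Its level was 263 CPM in quiescent EOM, 306 in quiescent TA, 1081 in activated EOM and 1116 in activated TA. Both activated libraries were far above both quiescent ones, by 4.11-fold in EOM (95% interval 4.00 to 4.24) and 3.65-fold in TA (3.54 to 3.76). Over the alternatives tried, the log2 ratio ran from 1.99 to 2.13 in EOM and from 1.75 to 2.26 in TA. Rps27l had at least 1 UMI in 2436 of 3596 quiescent EOM cells and in 5546 of 5566 activated EOM cells, at unequal depth. The other p53 targets listed went both ways: of 21 measured, 6 stood 1.5-fold or more above and 8 below in EOM, and 7 and 8 in TA, near the shares of all features. Among them, Bax, a promoter of cell death, was at 46.8 and 47.8 CPM at rest and at 374 and 360 CPM after it, while Btg2, a brake on proliferation, was at 483 and 478 CPM and then 16.5 and 16.3 CPM.

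Rps20, a protein of the small-subunit head, went from 3641 to 6297 CPM in EOM and from 3406 to 6133 CPM in TA, 1.73-fold and 1.80-fold. Rpsa, the small-subunit protein also known as the laminin receptor, was 1.54-fold higher in EOM and 1.65-fold in TA. Rplp0, the base of the stalk that recruits elongation factors, was at 3863 and 4519 CPM at rest and 6072 and 6190 CPM after activation. Its fold was 1.57 (1.56 to 1.58) in EOM and 1.37 (1.36 to 1.38) in TA. The other stalk proteins went the opposite way, with log2 ratios of -0.61 and -0.50 for Rplp1 and -0.38 and -0.45 for Rplp2 in EOM and TA, but both have a listed copy. In the large subunit, Rpl32 was 1.59-fold and 1.49-fold higher and Rpl31 1.54-fold and 1.62-fold. For Rps20, Rpsa, Rplp0, Rpl32 and Rpl31, both activated libraries were above both quiescent ones.

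Abundant members that carry much of the total stayed near level. Rpl13, the most abundant over the libraries, was at 6027, 5668, 6160 and 5870 CPM in library order. Rpl23 was at 5452, 5378, 5392 and 5266 CPM and Rps24 at 5137, 4569, 4970 and 4970 CPM in the same order. Rps27a, made as a fusion with ubiquitin, was 1.21-fold higher in activated cells of both muscles. Rps4x, encoded on the X chromosome, was lower after activation and went from 5512 and 5052 CPM to 3908 and 3791 CPM. Rps6, the substrate of the TOR-dependent S6 kinases, was at 1831, 1575, 1873 and 1884 CPM. The CPM scale counts molecules and is not divided by length, so orders between genes assume equal capture.

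Of the 64 members with no listed copy, 6 were at least 1.5-fold lower in both muscles: Rps28, Rpl38, Rps21, Rps29, Rpl37 and Rpl39. Rps28 had the lowest ratio of them, with 3967, 4354, 1642 and 1361 CPM in library order, or 0.414 (0.410 to 0.417) and 0.313 (0.310 to 0.316) of the quiescent level. Rpl38, whose loss is known to affect translation of a subset of homeobox messages, went from 3103 to 1322 CPM in EOM and from 3407 to 1172 CPM in TA. Rps21 went from 5788 to 2491 CPM and from 5452 to 2166 CPM. Rps29, a zinc-binding protein of the small-subunit head, went from 3473 to 1589 CPM and from 3668 to 1322 CPM. In all 4 genes both activated libraries lay below both quiescent ones.

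These are short genes. With no listed copy and a coding region of at most 300 bases there were 8 members, of 153 to 291 bases, a limit chosen after the values were seen. Of these, 7 were lower after activation in both muscles and the exception was Rps27l. Among members with no listed copy, the median log2 ratio of the shortest 16 (153 to 375 bases) was -0.35 in EOM and -0.45 in TA. These 16 were split: in each muscle 9 were lower by any amount, 6 at least 1.5-fold lower and 4 at least 1.5-fold higher. The median was 0.29 and 0.34 in the next 16, 0.09 and 0.12 in the 16 after that and 0.22 and 0.27 in the longest 16, so there was no steady trend beyond the shortest. Over the 64 members with no listed copy, coding length and the activation ratio had a Spearman rho of 0.20 in EOM and 0.22 in TA. Rpl41, the shortest of all with 75 coding bases, has a listed copy and was at 4138, 4216, 4099 and 3731 CPM.

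**Figure D3:**
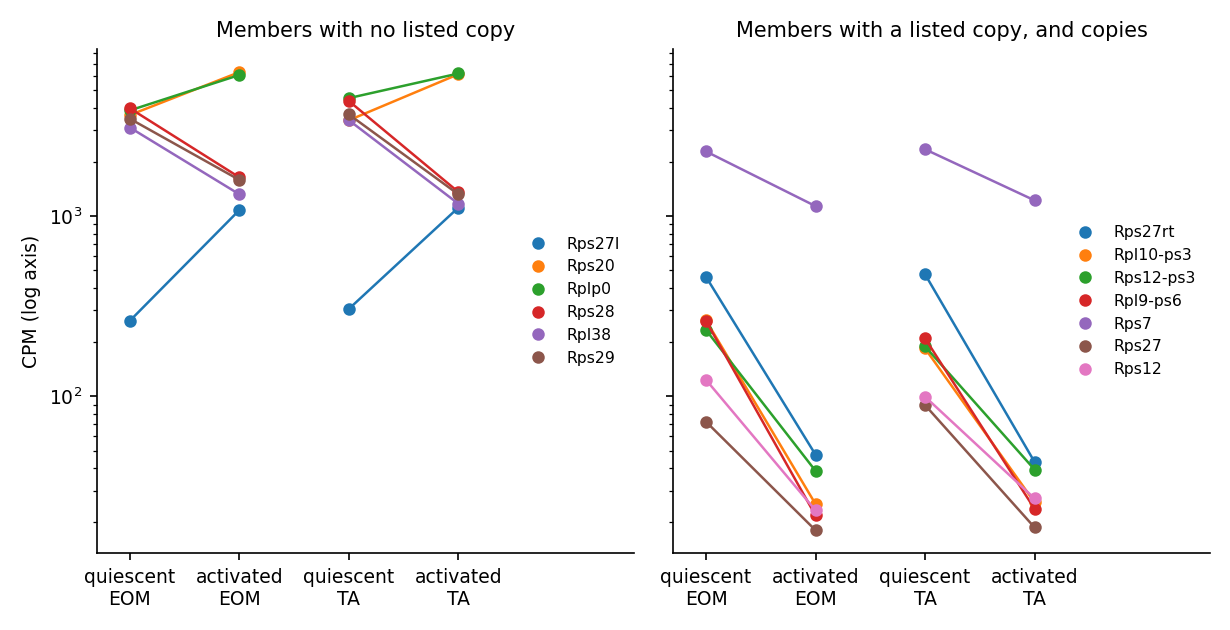
CPM on a log axis in the 4 libraries, 1 point per library, lines joining quiescent and activated cells of a muscle. On the left are members with no listed copy, of which Rps27l, Rps20 and Rplp0 are higher and Rps28, Rpl38 and Rps29 lower after activation. On the right are Rps7, Rps12 and Rps27 with copies of members, all lower after activation.

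Of the 17 members with a listed copy, none was higher after activation in either muscle, and 13 were at least 1.5-fold lower in EOM and 13 in TA. The medians were -1.22 and -1.19 on the log2 scale, against 0.11 and 0.22 for the 64 others. Rps12 was at 124 and 99.6 CPM at rest and 23.3 and 27.1 CPM after activation. Rpl10, a large-subunit protein that joins late and is needed for the subunit to become active, was at 50.6 and 43.0 CPM and then at 9.49 and 9.59 CPM. Rps27 was at 72.4 and 89.5 CPM and then at 18.1 and 18.7 CPM. These levels stand far below those of most members, 66 of which were above 1000 CPM in every library, although their proteins are parts of the same particle. Rpl27, with a listed copy too, was at 41.8 and 41.9 CPM at rest and 13.6 and 17.8 CPM after activation. Rpl10, Rps27 and Rpl27 were the only 3 members under 100 CPM in every library, and so the nearest to the 5 CPM minimum. Over the members, the share of 91-base windows found in another gene and the activation ratio had a Spearman rho of -0.62 in EOM and -0.61 in TA (n = 81, with the 4 libraries shared).

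Most copies were lower as well. Rps27rt was at 460, 476, 47.5 and 43.3 CPM in library order. Rpl9-ps6, a copy of the large-subunit gene Rpl9, went from 262 to 21.8 CPM in EOM and from 210 to 23.8 CPM in TA. Rpl10-ps3 went from 264 to 25.3 CPM and from 184 to 25.9 CPM, and Rps12-ps3 from 233 to 38.6 CPM and from 189 to 39.3 CPM. The exceptions were Gm10073, a copy of Rplp1, at 126, 141, 160 and 169 CPM in library order, BC004004, which shares a stretch with Rpl21, at 28.9, 22.7, 28.2 and 27.4 CPM, and Gm10076, a copy of Rpl41, at 8.80, 8.96, 9.64 and 10.9 CPM. Rps27rt, Rpl9-ps6, Rpl10-ps3 and Rps12-ps3 were each above the member they copy in the quiescent libraries. The sum of Rps27 and Rps27rt was 533 and 566 CPM at rest and 65.6 and 62.0 CPM after activation, and it does not hold reads that fit both genes and were not counted.

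Features that are not members but share sequence were also lower more often. Copies of members, given above, can be among them and were not set apart. Of the 87 other features at 5 CPM or more with over 50% of their windows in another gene, 56.3% were at least 1.5-fold lower after activation in EOM and 56.3% in TA, with medians of -0.93 and -0.96. For the 10050 others with no shared window those shares were 32.1% and 31.7%, with medians of 0.06 and 0.11. Of the 3 measured genes of ribosomal proteins outside the name rule, Fau had log2 ratios of -0.14 and -0.04 and Rack1 of 0.28 and 0.28. The remaining gene was at -2.02 in EOM and -1.66 in TA. Sharing of sequence thus moved with the activation ratio among members and among other features, with copies of members not set apart. Its part in the result was not tested, and the sources used here do not say whether read length or preparation differed between the libraries.

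The machinery around the ribosome was also measured, from lists chosen with earlier results of these data known. Their counts stand beside the 34.2% and 37% of all features that were 1.5-fold or more higher in EOM and TA and the 32.3% and 31.9% as much lower. Mitochondrial ribosomal proteins, which build the separate ribosome of mitochondria, differed from the cytosolic ones: 71 of 77 stood 1.5-fold or more above the quiescent level and 1 as far below in EOM, and 70 and 1 in TA, with medians of 1.58 and 1.78. Mrpl18 went from 15.7 to 308 CPM in EOM and from 12.6 to 316 CPM in TA. Of 71 ribosome biogenesis genes, 33 were above and 3 below by that measure in EOM, and 24 and 8 in TA, with medians of 0.46 and 0.20, so the share of higher genes in TA was not above that of all features. Npm1, a nucleolar chaperone of ribosome assembly, went from 966 to 4221 CPM and from 1031 to 4787 CPM, while Nop58, a core protein of the box C/D particles that methylate ribosomal RNA, went from 720 to 248 CPM and from 916 to 288 CPM. Of 38 initiation factors, 17 were higher in each muscle and 4 and 6 lower. Of 13 elongation and release factors, 7 and 6 were higher and none lower. Of 19 RNA polymerase I genes, 8 and 9 were higher and 0 and 3 lower, and of 12 ribosome-binding and rescue factors 5 and 6 were higher and 1 and 1 lower.

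Of 22 genes that control ribosome production through TOR or MYC, 4 and 5 were higher and 8 and 9 lower, the latter near the shares of all features. Myc itself, the transcription factor that drives many ribosome genes, was at 368, 595, 15.7 and 17.2 CPM in library order. Its level right after sorting was thus above that after 4 days of culture. Eif4ebp1, a TOR target that holds back cap-dependent initiation, went from 132 to 404 CPM and from 188 to 458 CPM. Larp1, which binds TOP messages, was at 59.2, 69.1, 78.3 and 80.3 CPM in library order.

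Between muscles, members differed little. At rest no member was 1.5-fold apart between EOM and TA in either direction, while 11.4% of all features were that much higher in EOM and 6.12% that much lower. The median over members was 0.08 on the log2 scale, near the 0.10 over all features. It was 0.00 with TMM factors and -0.02 with median-of-ratios factors, so whether most members were higher in EOM depends on the scaling. With cells of at most 5% mitochondrial UMIs, of which there were 263 in quiescent EOM and 46 in quiescent TA, 2 members were at least 1.5-fold higher in EOM. Below TA by the most was Rpl7l1, a relative of Rpl7 known from ribosome assembly, with 96.4 CPM in EOM and 128 CPM in TA, 0.752 (0.704 to 0.803) of the TA level. Rplp0 was at 0.855 of TA, and Rps27l at 0.859. Over the alternatives tried, the log2 ratio of Rps27l ran from -0.32 to 0.10, so its direction depends on the processing. Above TA by the most were Rpl13a, a large-subunit protein known for silencing messages in interferon-treated cells, with 476 and 380 CPM, 1.25-fold (1.21 to 1.29), and Rps12 at 1.24-fold, which has a listed copy. Rps9 and Rps6 were both 1.16-fold higher in EOM.

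After activation the median was 0.03 and again no member was 1.5-fold apart, where 5.99% of all features were that much higher in EOM and 2.75% lower. The highest ratios belonged to Rps28 at 1.21 (1.198 to 1.21), Rps29 at 1.202, Rpl37a at 1.16, Rps21 at 1.15 and Rpl37 at 1.15. The lowest belonged to Rpl27 at 0.761 and Rpl7a at 0.798, each with a listed copy, and Rpl7l1 at 0.887 (0.869 to 0.907). Rpl7l1 was thus lower in EOM in both states. In all, 37 members were above and 13 below TA in both states and 31 had opposite signs. The quiescent and the activated ratio had a Pearson r of -0.04 and a Spearman rho of -0.03 over the 81 members, whose counts come from the same libraries. Of the 8 short members with no listed copy, 7 were higher in activated EOM than in activated TA, and 3 were higher in quiescent EOM than in quiescent TA. Over the 64 members with no listed copy, coding length and the EOM to TA ratio of activated cells had a Spearman rho of -0.54, and at rest of 0.14. Median UMIs per cell were 21284 and 23364.5 in activated EOM and TA, and the part of depth was not tested.

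**Figure D4:**
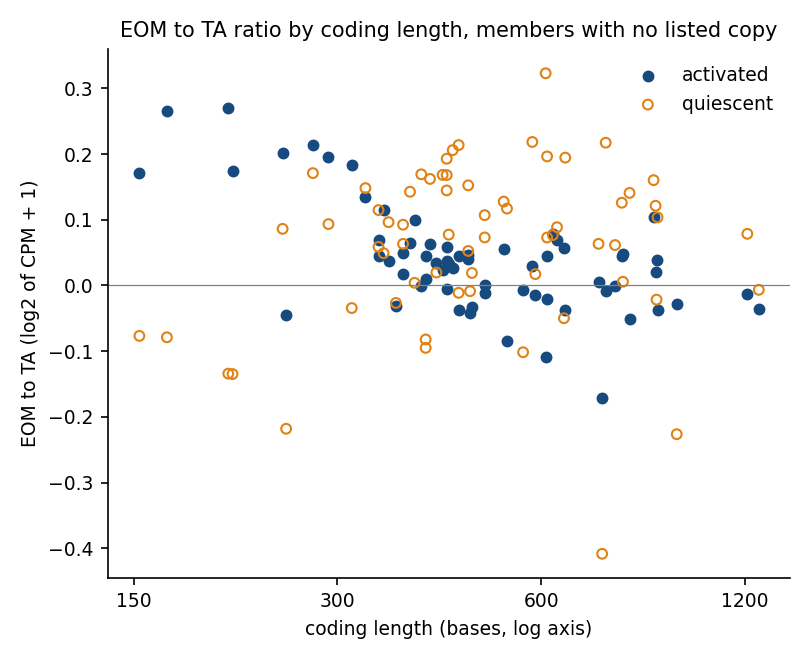
EOM to TA ratio on the log2(CPM + 1) scale against coding length in bases on a log axis, for the 64 members with no listed copy. Filled points are activated and open points quiescent cells. Most filled points at the left, the shortest genes, lie above 0, up to 0.27 for Rps28, and the open points show no such tilt.

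Among the lists around the ribosome, the biogenesis genes were the furthest below TA in EOM by their median. Of 71 ribosome biogenesis genes, 66 were lower in quiescent EOM than in quiescent TA and 27 by at least 1.5-fold, where 38% and 6.12% of all features were, with a median of -0.49 on the log2 scale. After activation all 71 were lower in EOM, none by 1.5-fold, with a median of -0.24. Nop16 was at 40.3 CPM in quiescent EOM and 94.98 CPM in quiescent TA. Other lists were nearer level at rest: of 77 mitochondrial ribosomal proteins 1 was 1.5-fold higher and 2 lower in EOM, of 38 initiation factors 1 and 4, and of 12 ribosome-binding and rescue factors none, with medians of 0.03, -0.07 and 0.07. In the same libraries 56 of 81 members were higher in quiescent EOM and 49 of 81 in activated EOM by any amount, where all features gave 61.6% and 50.3% higher and 38% and 49.5% lower.

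Activated cells were then split by Myog, the transcription factor that starts terminal differentiation. Cells thinned to 2000 UMIs were Myog-holding with at least 1 Myog UMI and Myog-free otherwise, and their full counts were summed. In activated EOM 2745 cells were Myog-holding and 2790 Myog-free, and in activated TA 2560 and 1677. No member was 1.5-fold apart in either muscle, where 8.83% and 6.66% of all features were that much higher in Myog-holding cells of EOM and TA and 15.4% and 7.48% lower.

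As a share of UMIs, ribosomal protein RNA was slightly lower in Myog-holding cells. It was 21.6% against 22.6% in EOM and 21.2% against 22.04% in TA. By CPM, 76 of 81 members were lower in EOM and 77 of 81 in TA, 73 of them in both, where 63.4% and 60.9% of all features were lower and 36.3% and 38.7% higher. The median log2 ratio was -0.07 in EOM and -0.06 in TA, against -0.12 and -0.07 over all features. This direction depends on the scale: with TMM factors the medians were 0.05 and 0.02 and 73 and 62 of 81 members were higher, while median-of-ratios factors gave 0.06 and 0.01, with 74 and 55 higher. A CPM is a share of a library and says nothing of the amount of RNA per cell.

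From 0 to 5 or more Myog UMIs the share went down in both muscles. In activated EOM cells with no UMI of the proliferation genes Mki67 and Top2a among 2000, it was 22.9% with 0 Myog UMIs, 22.8% with 1, 22.2% with 2, 22.1% with 3 to 4 and 21.2% with 5 or more. In TA it was 22.3%, 21.97%, 21.8%, 21.5% and 20.8%. Cells with Mki67 or Top2a were lower at 0 Myog UMIs, at 22.4% in EOM and 21.9% in TA, and reached 21.0% and 20.5% at 5 or more. Their steps in EOM were not even, with 22.1% at 1 Myog UMI and 22.3% at 2. In cells without Mki67 or Top2a, from 0 to 5 or more Myog UMIs, the mitochondrial share went from 6.04% to 6.996% in EOM and from 5.99% to 6.91% in TA, and the 22 differentiation genes went from 0.239% to 3.34% and from 0.493% to 3.702%. With mitochondrial and differentiation UMIs left out of the total, the ribosomal protein share of these cells went from 24.5% to 23.7% in EOM and from 23.9% to 23.2% in TA, a smaller difference than with them. The part of these UMIs in the result was not tested. The steps lie within the spread between cells, whose middle 50% ran from 22.1% to 23.9% at 0 Myog UMIs and from 20.2% to 22.4% at 5 or more in EOM.

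**Figure D5:**
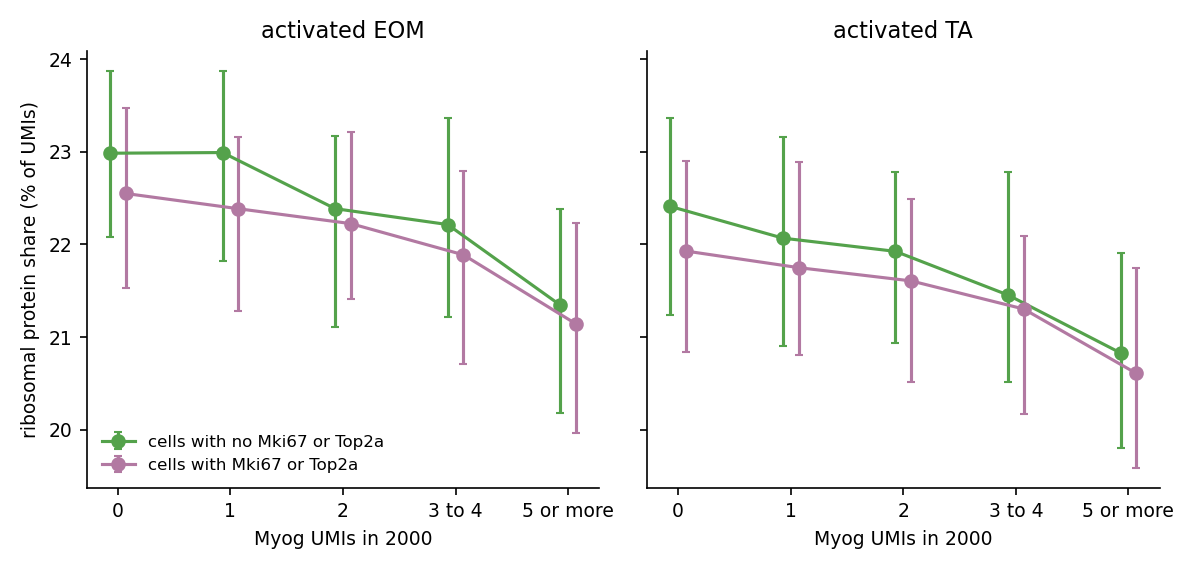
Ribosomal protein share of UMIs, in percent, in activated cells by the number of Myog UMIs after thinning to 2000 UMIs, for EOM on the left and TA on the right. Points are medians over cells and bars the middle 50% of cells, green for cells with no UMI of Mki67 or Top2a and purple for cells with one. Medians at 5 or more are below those at 0 in both muscles, at 21.3% and 22.98% in green cells of EOM, where the medians at 0 and 1 are nearly equal, and the bars overlap.

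Single members stood out little between Myog states. Rps27l was at 1143 CPM in Myog-free and 1013 CPM in Myog-holding cells of EOM and at 1193 and 1061 CPM in TA, 0.886 (0.876 to 0.896) and 0.889 (0.879 to 0.900) of the Myog-free level. Rpl31 was at 0.896 and 0.890 and Rplp0 at 0.889 and 0.903. Rpl7l1 was at 0.912 in EOM and 0.839 (0.814 to 0.866) in TA. Rpl10 and Rps12, which have listed copies, were lowest in EOM at 0.732 (0.650 to 0.824) and 0.855 (0.793 to 0.921). At the other end, Rpl13a and Rpl21 in EOM, at 1.03 each, and Rpl10a at 1.02 and Rps4x at 1.01 in TA had intervals above 1, and Rps28 was the 1 member above level in both, at 1.01 and 1.004 with intervals that include 1. Across members the ratios of the muscles had a Pearson r of 0.65 and a Spearman rho of 0.64 (n = 81 genes). Beside them, 64 of 71 ribosome biogenesis genes were lower in Myog-holding cells of EOM and 69 of 71 in TA, with medians of -0.25 and -0.32, where 63.4% and 60.9% of all features were lower. These are CPM values, the scale on which the members' own direction depends, and other scalings were not run for that list. Myc was at 24.02 and 6.48 CPM in Myog-free and Myog-holding cells of EOM and at 27.9 and 9.67 CPM in TA.

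Paralogues ranged from genes that were hardly detected to genes at the level of their partner. Rpl3 encodes a protein close to the peptidyl transferase centre, and Rpl3l is its paralogue of mature heart and skeletal muscle. Rpl3 was at 2522, 2388, 3105 and 3133 CPM in library order. Rpl3l had 2, 0, 2 and 4 UMIs in those libraries, each UMI in a different cell, so it was at or near the floor of 3 UMIs and no fold is given. A count of 0 in quiescent TA allows up to 0.196 CPM. In Myog-holding cells Rpl3l had 1 UMI in EOM and 1 in TA, beside 180137 and 187684 UMIs of Rpl3.

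Rpl10l and Rpl39l are known from the male germ line, where the first stands in for the X-linked Rpl10. Rpl10l had 8, 7, 11 and 5 UMIs, at most 0.458 CPM, in the same order. Rpl39l had 1, 1, 31 and 2 UMIs, and the 31 in activated EOM came from 14 of 5566 cells. Rpl39 itself was at 4856, 5122, 3183 and 2825 CPM. With Rpl3l these were the 3 genes outside the 5 CPM minimum.

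Rpl22l1 was as abundant as Rpl22. Rpl22 binds RNA and is known to regulate splicing of Rpl22l1 messages. Its level was 1553, 1407, 2002 and 1915 CPM, and that of Rpl22l1 1298, 1322, 1979 and 2022 CPM, in library order. Rpl22l1 was thus 45.5% (exact binomial interval 45.1 to 46.0) and 48.4% (48.0 to 48.9) of the pair at rest and 49.7% (49.6 to 49.9) and 51.4% (51.2 to 51.5) after activation, lower in EOM in both states. Both were higher after activation, Rpl22 by 1.29-fold and 1.36-fold and Rpl22l1 by 1.52-fold and 1.53-fold. Between Myog-free and Myog-holding cells the share of Rpl22l1 was 50.01% and 49.4% in EOM and 51.2% and 51.5% in TA.

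Rps27l made up 78.4% and 77.4% of the UMIs of Rps27 and Rps27l together at rest and 98.4% and 98.3% after activation. Since Rps27 shares all of its coding sequence with Rps27rt, those shares count only the Rps27 reads that could be placed. Rpl7l1 was 3.04% (2.90 to 3.19) of its pair with Rpl7 in quiescent EOM, 4.398% (4.21 to 4.59) in quiescent TA, 4.403% (4.34 to 4.47) in activated EOM and 4.77% (4.70 to 4.84) in activated TA. Rpl36al was 31.7%, 33.9%, 31.0% and 31.7% of its pair with Rpl36a in that order, and both have listed copies.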

How the data were processed

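UMI counts of all 4 libraries were used. The authors deposited raw counts per feature and barcode, and the submitters' processing notes name Cell Ranger 3.0.2 and mm10. The sources used here name no chemistry, read length or annotation release. Of 31055 features, 30934 matched GENCODE vM21.

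Barcodes were kept with at least 500 genes and at most 10% mitochondrial UMIs. The automatic threshold of Scrublet (scanpy 1.11.5) called 1, 0, 0 and 0 doublets and did not work, so the highest scores were removed by rank at 0.8% per 1000 barcodes (139, 161, 433 and 274). Leiden clusters (igraph 0.11.9) named for another cell type were removed (16 endothelial-like cells of quiescent TA). A marker had to be present in 10% of a cluster's cells, a limit set after the data were seen.

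UMIs were summed per library or Myog state and scaled to CPM. Ratios are log2(CPM + 1), which understates changes of low genes; folds are of CPM with exact 95% Poisson-ratio intervals, tested on simulated data. No test between groups could be run on single libraries, and the 1.5-fold limit only describes size. TMM factors came from edgeR 4.0.16. Named members were the 8 most abundant, the 5 highest and 5 lowest ratios per comparison, paralogue pairs and those nearest 5 CPM; from other lists, up to 3 genes per direction at 20 CPM or more. Rpl12, Rpl15, Rpl41, Rplp1, Rplp2, Rps7, Rps10 and the copies were named outside that rule after their values were seen. Members and lists were chosen with earlier results of these data known. Results for some members and related genes are not reported here.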

Additional observations from a re-analysis of the deposited data

Results flagged for a closer look

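For 6 members the EOM to TA ratio had opposite directions in quiescent and activated cells, each by at least 0.1 on the log2 scale, and the difference between the states was not tested, since each ratio rests on 1 library per group. Rps28 was at -0.13 and 0.27 and Rpl38 at -0.13 and 0.17 (quiescent and activated), both short and without a listed copy. Rpl13a was at 0.32 and -0.11. Rps12 was at 0.31 and -0.21, Rpl9 at 0.22 and -0.15 and Rpl7a at 0.15 and -0.32, and these 3 have a listed copy. Over the alternatives tried, the quiescent ratio of Rpl38 ran from -0.23 to 0.12 and the activated ratio of Rpl9 from -0.23 to 0.02. The opposite directions of Rpl38 and Rpl9 thus depend on the processing, while the flagged ratios of the other members kept their sign. The quiescent TA library kept 55.5% of its barcodes, the lowest of the 4, because 40.5% were over the mitochondrial limit.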

How the results depend on the processing

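No paired analysis was possible because each group is 1 library and the labels give no shared replicate numbers, and no replicate could be left out. Under the 13 alternatives tried in each muscle, the members' median activation ratio ran between -0.06 and 0.11 in EOM and between -0.02 and 0.23 in TA on the log2 scale. Its sign thus depended on the setting. These values stayed within the order-statistic interval of the median, and a median said to have moved below left its own. That interval follows the spread between genes of the same libraries, which was wide for activation and narrow for Myog state. Staying inside it is therefore no measure of stability. The median of quiescent EOM against quiescent TA moved from 0.0767 to 0.00149 (TMM), -0.0225 (median-of-ratios), 0.169 (at most 5% mitochondrial, with 263 and 46 cells) and 0.172 (all barcodes), and that of activated EOM against activated TA from 0.0270 to -0.00594 (median-of-ratios). For Myog state in EOM it moved from -0.0696 to 0.0482 (TMM), 0.0569 (median-of-ratios), -0.0790 (scaling by UMIs outside members and mitochondrial genes), -0.0430 (at most 5% mitochondrial), -0.0516 (Myog at full depth) and -0.0916 (cells without Mki67 or Top2a). In TA it moved from -0.0630 to 0.0238 (TMM), 0.0150 (median-of-ratios), -0.0433 (all barcodes) and -0.0811 (cells without Mki67 or Top2a). The cause was not tested. The counts of members 1.5-fold or more higher after activation ran from 5 to 11 in EOM and from 4 to 18 in TA. Those of members as much lower ran from 17 to 22 and from 19 to 23 with all members kept, and were 7 and 6 without members that have a listed copy and 14 and 13 without those that have a feature named -ps. The alternative without members that have a listed copy was chosen after the data were seen. For 35 named members, none of 2170 values under an alternative turned the sign of a ratio past 1.5-fold, and 984 left the counting interval of the reported value. Between muscles and between Myog states no member was 1.5-fold apart, so that limit could hardly be passed there. It says nothing of smaller sign changes, which did occur. For example, the quiescent EOM to TA log2 ratio of Rps27 ran from -0.40 to 0.32 and that of Rps27l from -0.32 to 0.10. Rare members are limited by depth: Rpl3l never passed 4 UMIs in a library.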
